A study of Mus musculus with 5 samples.

Results

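Cdkn2a and Cdkn2b are neighbouring genes on mouse chromosome 4 that encode inhibitors of the cell cycle. The chromatin around them was described from 4 lists of called regions, made by chromatin immunoprecipitation and sequencing (ChIP-seq). Members were all rows that touched the mm9 interval chr4:88770000-89110000. This interval holds Cdkn2a at about 88920000 to 88941000, Cdkn2b at about 88952000 to 88957000, and about 150 kb on either side. It caught 44 of the 166982 rows in the lists: 1 of 6578 Hoxa9 peaks, 2 of 26446 C/EBPα peaks, 15 of 100189 H3K4me1 regions and 26 of 33769 H3K27me3 regions.

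All libraries came from lineage-depleted bone marrow progenitors of C57B6 mice, which carried both retroviruses MIGR1-HA-Hoxa9 and MIGR1-Flag-Meis1 and grew in IL3. The anti-HA antibody maps only the introduced, tagged Hoxa9, while C/EBPα, H3K4me1 and H3K27me3 were precipitated with antibodies of their own. The input library carried the same viruses and is not used here. The sources used here do not give the age of the mice, whether the culture was a pool or a clone, or the library totals. No expression was measured, so the labelled cell type could not be checked against markers. Each group had 1 library and no replicate, so every value below describes these lists and no test between conditions was possible.

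Cdkn2a has separate first exons for a pair of proteins. The transcript that starts further upstream encodes p19Arf, which binds Mdm2 and so stabilises p53, and the other encodes p16Ink4a, which inhibits the cyclin-dependent kinases CDK4 and CDK6. Cdkn2b encodes p15Ink4b, a further inhibitor of the same kinases. In many proliferating stem and progenitor cells the locus is held silent by Polycomb proteins, whose complex PRC2 places H3K27me3, while H3K4me1 marks enhancers and the borders of promoters. Hoxa9 is a homeodomain transcription factor that transforms progenitors together with Meis1. C/EBPα is a leucine zipper protein that drives myeloid differentiation.

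The RefSeq starts of the genes are shown because the called H3K4me1 regions over them are set against their spacing further on. Both genes run on the minus strand, and the table of promoters matched both symbols and gave 3 starts, 1 for Cdkn2b and 2 for Cdkn2a. The 250 bases before each start are written 5′ to 3′ on the gene's strand, with the CpG dinucleotides in capitals. They come from RefSeq on GRCm38.p6, another build than mm9, at chr4:89311033-89311282, chr4:89294620-89294869 and chr4:89282193-89282442 in the order shown.
Cdkn2b start: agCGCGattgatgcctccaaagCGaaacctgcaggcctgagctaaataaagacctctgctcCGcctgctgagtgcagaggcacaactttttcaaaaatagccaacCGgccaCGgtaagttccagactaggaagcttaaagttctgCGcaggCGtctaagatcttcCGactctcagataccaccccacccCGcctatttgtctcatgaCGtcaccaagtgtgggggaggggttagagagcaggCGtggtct
Cdkn2a upstream start: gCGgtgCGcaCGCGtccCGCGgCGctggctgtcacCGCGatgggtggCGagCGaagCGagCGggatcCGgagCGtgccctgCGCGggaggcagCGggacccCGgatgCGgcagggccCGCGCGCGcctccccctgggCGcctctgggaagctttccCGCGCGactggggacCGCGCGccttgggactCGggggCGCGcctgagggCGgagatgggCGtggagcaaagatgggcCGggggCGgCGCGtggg
Cdkn2a downstream start: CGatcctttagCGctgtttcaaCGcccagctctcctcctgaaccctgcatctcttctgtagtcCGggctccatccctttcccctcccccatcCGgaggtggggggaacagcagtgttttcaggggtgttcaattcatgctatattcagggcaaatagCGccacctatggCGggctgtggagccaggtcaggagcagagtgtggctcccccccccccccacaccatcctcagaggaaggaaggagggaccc

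The 3 promoters differed in CpG content. The upstream Cdkn2a start had 40 CpG dinucleotides in these 250 bases, more than 98.7% of the 32851 promoters in the table, whose median was 6. The Cdkn2b start had 12, more than 66.5% of promoters. The downstream Cdkn2a start had 7, more than 53.7% of promoters. A C/EBP motif (TTGCNNAA, both strands) was found in 0 of the 3, against 9.56% of all promoters, and a Hox-Pbx motif (TGATTTAT) in 0 of the 3, against 0.837%. A Meis motif (TGACAG) was found once, before the upstream Cdkn2a start, and in 15.9% of all promoters. A match in letters does not show binding.

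H3K27me3 lay over both genes almost without a break. Called regions covered 99.1% of the Cdkn2a span and 100% of the Cdkn2b span. They covered 89.6% of the 11.0 kb between the genes. The flank on the low-coordinate side was covered over 6.02% of its length and that on the high-coordinate side over 21.3%, against 3.04% of chromosome 4 as a whole. The edges of the gene spans are approximate, and the uncovered part of Cdkn2a is a break of 185 bp between neighbouring regions.

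**Figure D1:**
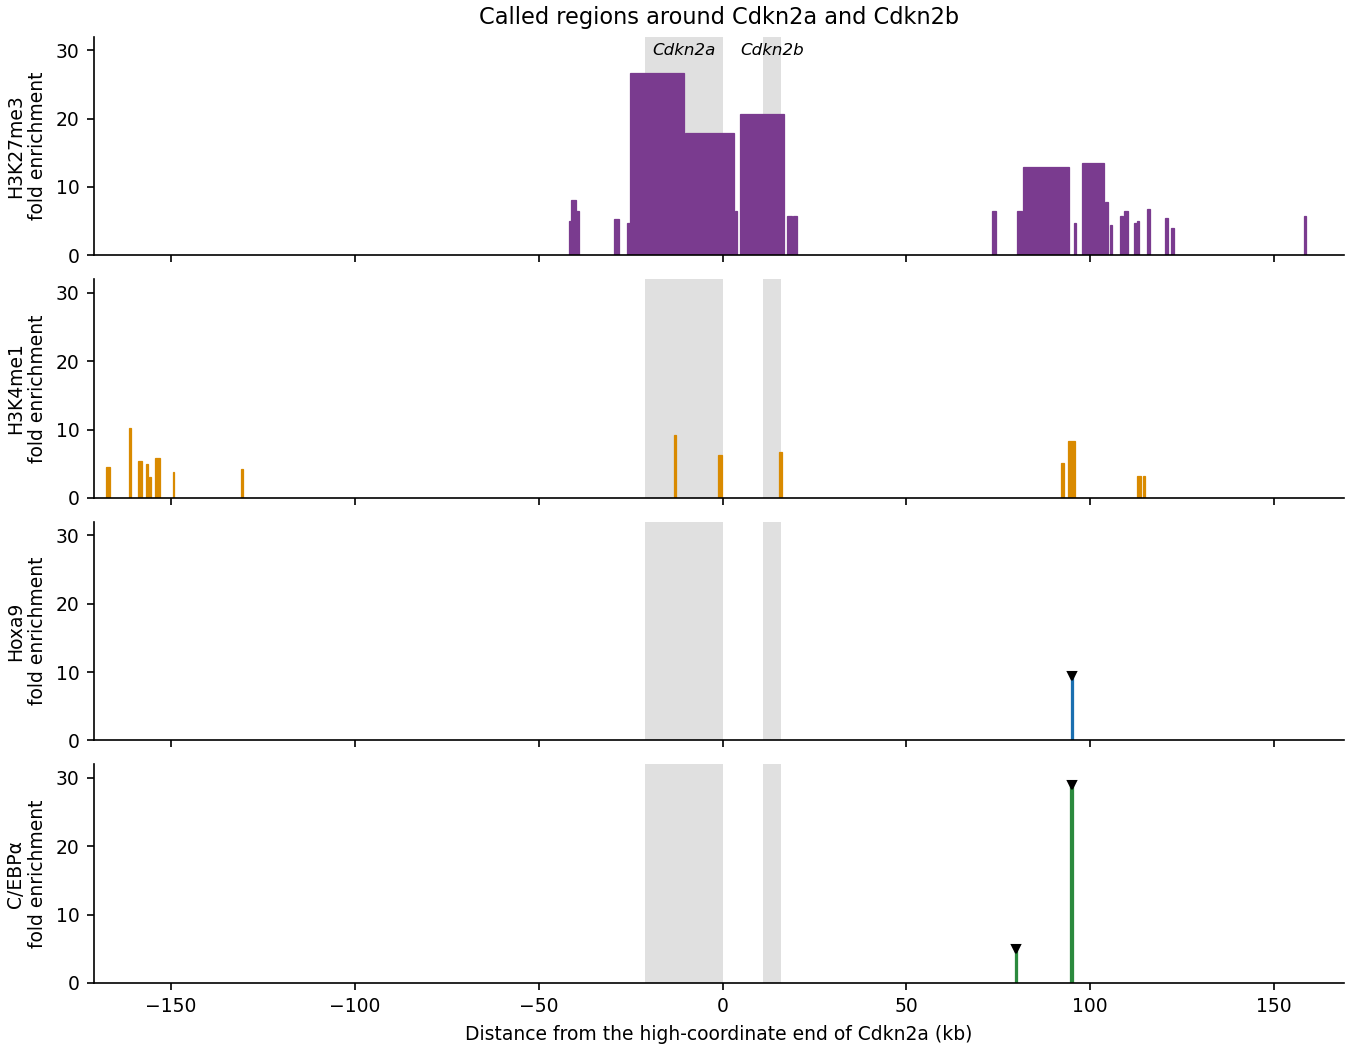
Called regions of the 4 lists around the genes, with distance from the high-coordinate end of Cdkn2a in kb on the horizontal axis and the authors' fold enrichment on the vertical axis. Bars are called regions drawn to scale in width (narrow ones have a minimum line), triangles mark factor summits and grey bands the approximate gene spans. H3K27me3 is tallest over the genes, with fold enrichments of 26.75, 17.94 and 20.65, and the Hoxa9 and C/EBPα peaks lie beyond Cdkn2b.

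The cover over the genes was made up of 3 wide regions. The first, chr4:88915952-88930623, spanned 14.7 kb from before the low-coordinate end of Cdkn2a into the gene, with 2985 tags and a fold enrichment of 26.75 as given by the authors' caller. The second, chr4:88930809-88944039, took in the high-coordinate part of Cdkn2a, with 1768 tags and a fold enrichment of 17.94. By the spacing given further on, the upstream Cdkn2a start falls in this second region and the downstream start in the first. The third, chr4:88945809-88957782, covered all of Cdkn2b and much of the stretch between the genes, with 1836 tags and a fold enrichment of 20.65. Each had a p score, which is −10 times the log10 of p, of 3100, a value shared by 2558 H3K27me3 regions, so the score does not rank them.

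The 3 gene regions were not equally dense. Tags per bp were 0.203 in the first, 0.134 in the second and 0.153 in the third. The first therefore stood above the median of 0.184 over all 688 H3K27me3 regions of 10 kb or more, and above 66.6% of them. The second and the third lay below it, with 12.9% and 25% of those regions less dense. Fold enrichment was below the median of 29.46 of these wide regions in all 3, which exceeded 34.2%, 9.30% and 14.0% of them. The summits lay at 88922758 near the low-coordinate end of Cdkn2a, at 88934928 inside it and at 88952905 inside Cdkn2b.

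A single domain of 46.45 kb resulted when regions up to 1000 bp apart were joined, a distance chosen after the values were seen. It ran over chr4:88914938-88961390, joined 7 called regions with 6841 tags and was 95% covered. By width it was at place 1 of 1369 such domains on chromosome 4 and place 35 of 22670 in all. The place depended on the joining distance. With gaps of up to 250 bp the stretch over Cdkn2a was 29.97 kb wide, at place 3 of 1754 on the chromosome, and Cdkn2b stood apart at 11.97 kb. With gaps of up to 3000 bp the domain was 49.84 kb wide, at place 6 of 1054. The called regions alone were of moderate width, with places 22, 32 and 40 among those of chromosome 4.

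Regions of 10 kb or more made up 4 of the 26 H3K27me3 members, against 2.04% of the whole list, and held 82.0% of the tags in the members. A fold enrichment of 10 or more was reached by 5 of the 26, against 15.2% of the list. The other 22 ranged from 413 to 6098 bp in width and from 4.06 to 13.54 in fold enrichment. Of them, 21 were narrower than 2 kb and had a median fold enrichment of 5.76, equal to that of the list. The widest of these 21 were chr4:88958480-88959902 beside Cdkn2b (1423 bp, fold enrichment 5.76) and chr4:88911552-88912965 beside Cdkn2a (1414 bp, 5.31). They were followed by chr4:89021087-89022405 (1319 bp, 6.43), chr4:89050089-89051357 (1269 bp, 6.43) and chr4:88960133-88961390 (1258 bp, 5.76).

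**Figure D2:**
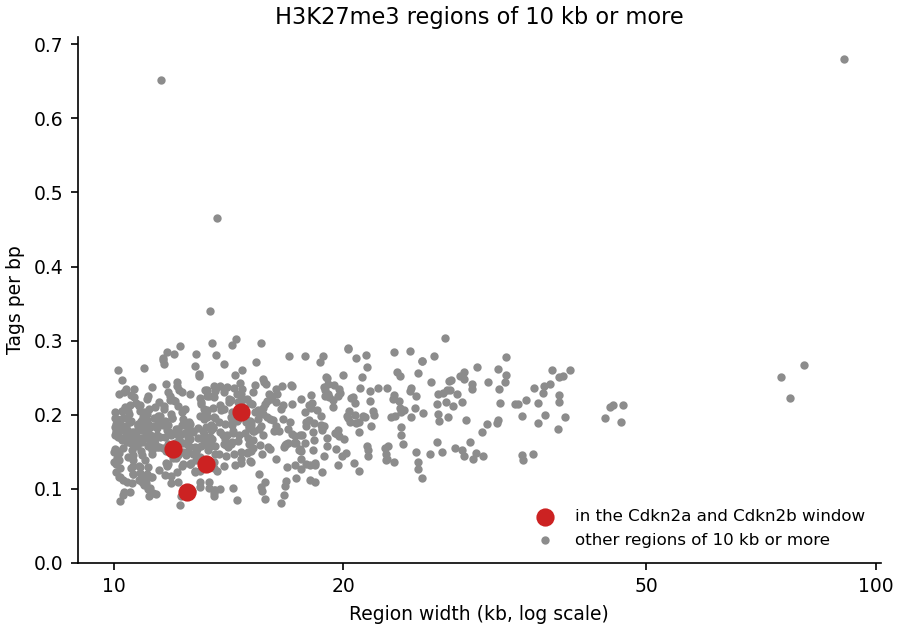
Width in kb (horizontal, log scale) and tags per bp (vertical) of the 688 H3K27me3 regions of 10 kb or more. The 4 red points are those of the Cdkn2a and Cdkn2b interval, at 0.203, 0.134, 0.153 and 0.0954 tags per bp, and grey points are all others, whose list has a median of 0.184.

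Each RefSeq start had a counterpart among the H3K4me1 calls. Inside the gene spans H3K4me1 was called 3 times, at chr4:88956339-88957186 at the high-coordinate end of Cdkn2b, at chr4:88939859-88940769 at the high-coordinate end of Cdkn2a and at chr4:88927690-88928468 inside Cdkn2a. Their summits were 16403 and 12364 bp apart in mm9. The RefSeq starts of Cdkn2b, upstream Cdkn2a and downstream Cdkn2a, in the same order, were 16413 and 12427 bp apart in GRCm38. The spacings differed by 10 and 63 bp. No coordinates were carried between the builds, so the match rests on order and spacing alone.

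The 3 H3K4me1 regions were short and moderately enriched. The region at the Cdkn2b end was 848 bp wide with 38 tags and a fold enrichment of 6.67. That at the upstream end of Cdkn2a was 911 bp wide with 36 tags and a fold enrichment of 6.22. That inside Cdkn2a, at the place of the p16Ink4a start by spacing, was 779 bp wide with 40 tags and a fold enrichment of 9.23. These fold enrichments were above those of 78.2%, 73.6% and 94.7% of all H3K4me1 regions, so the start with the fewest CpG dinucleotides had the highest. Tag numbers were close, at 36 to 40 each, and with 1 library a difference in H3K4me1 between the 3 starts was not tested.

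All 3 lay wholly inside the wide H3K27me3 regions, 1 in each. Of the 15 H3K4me1 members, 6 overlapped H3K27me3, against 6.85% of all H3K4me1 regions, and 4 lay wholly inside a region of 10 kb or more, against 1.42%. H3K27me3 covered 22.7% of the interval, so a higher share than in the list follows in part from where the interval was placed. All 4 wide H3K27me3 members touched H3K4me1, against 86.2% of such regions in the list, a share near the background. The 3 wide regions over the genes held 1 H3K4me1 summit each, where the median of wide regions was 2. H3K4me1 regions inside wide H3K27me3 regions had a median fold enrichment of 5.20 over 1418 regions, and all 3 at the genes exceeded it. Calls in the same place come from separate libraries and cannot tell whether both marks sat on the same chromosomes or in different cells.

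Away from the starts, H3K4me1 was not called in long stretches beside the genes. Still longer gaps took up most of the chromosome but were few in number. No region was called for 117 kb on the low-coordinate side of the Cdkn2a call, from 88810482 to 88927690, and 61.9% of chromosome 4 lay in longer gaps of this list. A further 75.95 kb without a call followed Cdkn2b, from 88957186 to 89033139, and 67.6% of the chromosome lay in longer gaps. By number, 2.44% and 3.92% of the 6177 H3K4me1 gaps on the chromosome were longer than these stretches. The median gap was 2.11 kb. Beyond the first stretch, 8 regions between 88773318 and 88810482 had fold enrichments from 3 to 10.29. The highest, chr4:88779443-88780121, had 39 tags. The widest, chr4:88786614-88787994, spanned 1381 bp with 59 tags and a fold enrichment of 5.81. Those at chr4:88773318-88774343 (1026 bp) and chr4:88782028-88782964 (937 bp) had fold enrichments of 4.44 and 5.33. None of these 8 overlapped H3K27me3, which had its first call of the interval at 88899119.

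Hoxa9 and C/EBPα were not called over either gene. Neither factor had a summit in the Cdkn2a span, between the genes, in Cdkn2b or on the low-coordinate flank of 150 kb. For C/EBPα the call-free stretch that holds the genes was 254 kb long, from 88766976 to 89020621, and 61.7% of chromosome 4 lay in longer gaps of this list. For Hoxa9 it was 333 kb long, from 88702314 to 89035755, and 83.7% of the chromosome lay in longer gaps. Still longer gaps thus took up most of the chromosome in both lists. By number they were 8.3% of the 1482 C/EBPα gaps (median 26.1 kb) and 31.6% of the 323 Hoxa9 gaps (median 154 kb). The weakest called peaks held 17 Hoxa9 and 15 C/EBPα tags, and binding below that level cannot be seen in the lists.

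The nearest Hoxa9 peak lay in the high-coordinate flank and was shared with C/EBPα. The Hoxa9 peak chr4:89035755-89036347 had 30 tags, a score of 119.5 and a fold enrichment of 9.44, above 80.4% of Hoxa9 peaks. The C/EBPα peak chr4:89035641-89036466 had 111 tags, a score of 1248 and a fold enrichment of 28.92, above 95.1% of C/EBPα peaks. The Hoxa9 summit was 79.02 kb from the high-coordinate end of Cdkn2b and 95.02 kb from that of Cdkn2a, upstream of both genes on their strand.

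Both factors met closely at this place. The C/EBPα peak contained all 593 bp of the Hoxa9 peak, and the summits were 75 bp apart. The only Hoxa9 member was thus shared, against 56.9% of all Hoxa9 peaks, and its summit was within 100 bp of a C/EBPα summit, against 34.9%. Of the 2 C/EBPα members 1 overlapped Hoxa9, against 14.2% in the list. With 1 and 2 peaks these counts cannot be told from the background shares.

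The shared site carried H3K4me1. The region chr4:89035011-89036954 spanned 1944 bp with 112 tags and a fold enrichment of 8.28, above 91.0% of H3K4me1 regions, and was the widest of the 15 members. It reached 1013 bp to the low-coordinate side of the Hoxa9 summit and 930 bp to the high-coordinate side, and its own summit lay 474 bp to the low-coordinate side of that of Hoxa9. Overlap with H3K4me1 was found for the only Hoxa9 member, against 82.4% of Hoxa9 peaks, and for 1 of the 2 C/EBPα members, against 73.6%. With 1 and 2 peaks these shares, too, cannot be told from the background.

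A second stretch of H3K27me3 surrounded the shared site. It began with a region at 89014243 and ran on to 89063864 in 14 calls, with a last, separate one at chr4:89099051-89099686. Its widest region, chr4:89022731-89035203, spanned 12.5 kb with 1190 tags, 0.0954 tags per bp and a fold enrichment of 12.87. Only 1.89% of the wide regions in the list were less dense, and all 3 over the genes were denser. The next, chr4:89038702-89044799, spanned 6098 bp with 615 tags and a fold enrichment of 13.54. The stretch was thus thinner and more broken than that over the genes, from which 52.9 kb without a call divided it.

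The shared peaks fell into a break of 1423 bp in this stretch. Breaks of such length were not particular to the site. Others in the stretch, of 1427, 2275, 1456, 2344 and 3938 bp, held no factor peak. The longest, of 5822 bp, held the summit of the other C/EBPα peak of the interval, which is described below. H3K27me3 ended 551 bp before the Hoxa9 peak and began again 279 bp after it, with the region chr4:89036627-89037274 of 36 tags. That region was weak, with a fold enrichment of 4.74, above 10.4% of H3K27me3 regions. For the C/EBPα peak the distances were 437 and 160 bp. H3K27me3 within 1000 bp of both ends, with none on the peak, was a pattern found at 0.806% of the Hoxa9 list and 0.348% of the C/EBPα list. This measure was chosen after the site was seen, so the shares only describe how common it is. The H3K4me1 region bridged the break and overlapped the H3K27me3 regions on its sides by 193 and 328 bp.

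**Figure D3:**
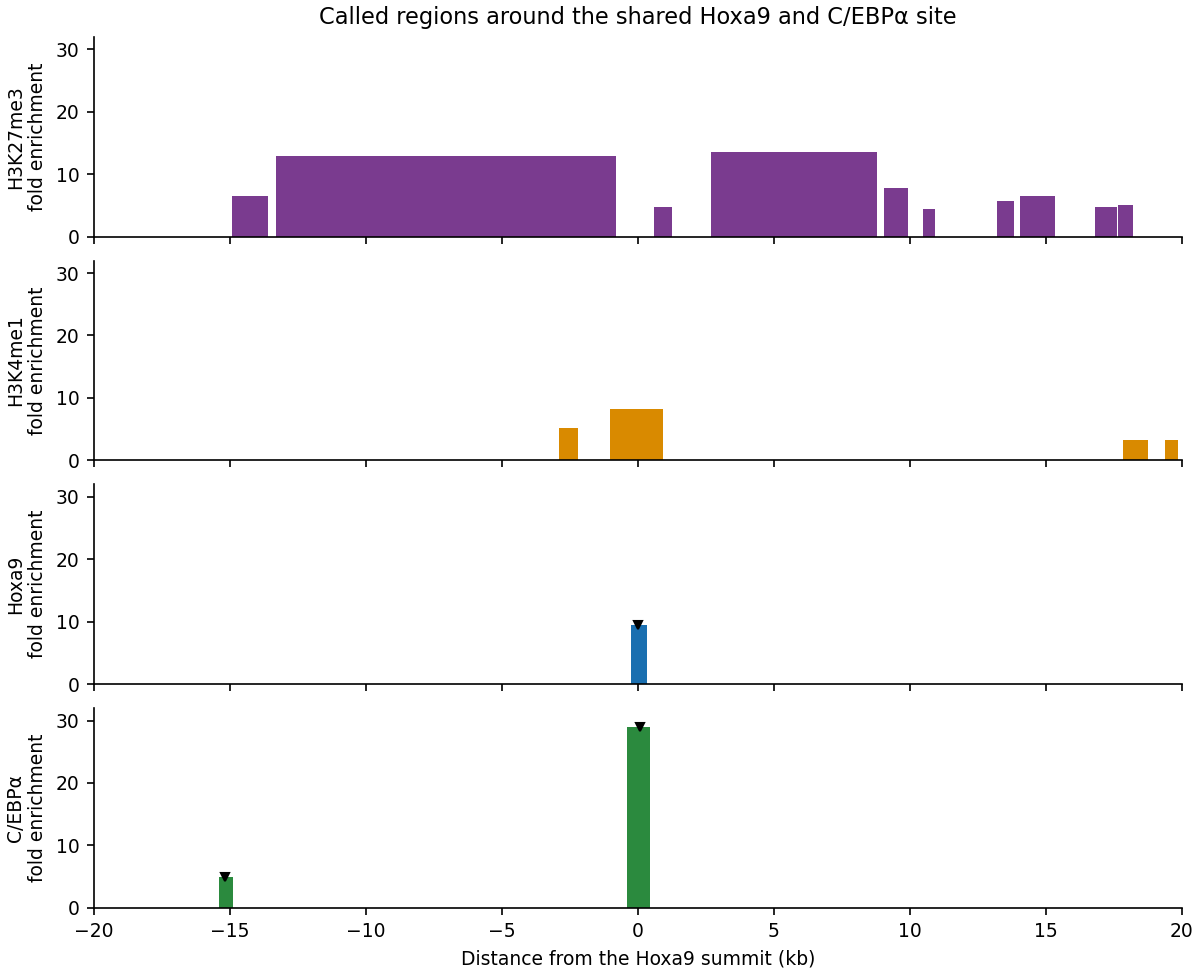
Called regions within 20 kb of the Hoxa9 summit, with distance from that summit in kb on the horizontal axis and the authors' fold enrichment on the vertical axis. Bars are called regions and triangles are factor summits. Hoxa9 (9.44) and C/EBPα (28.92) stand in the break of 1423 bp between H3K27me3 regions, on an H3K4me1 region of 1944 bp.

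The other C/EBPα peak was weak and lay within the same stretch, at the low-coordinate edge of the region chr4:89021087-89022405. At chr4:89020621-89021129 it had 19 tags and a fold enrichment of 4.94, above 17.1% of C/EBPα peaks, and its summit was 15.2 kb from the nearest Hoxa9 summit. It shared 43 bp with an H3K27me3 region and had no H3K4me1. It was the only factor peak of the interval on H3K27me3, which made 1 of 2 C/EBPα members against 2.09% of that list. For Hoxa9 it was 0 of 1 member against 1.49% of its list. H3K27me3 covered 22.7% of the interval, and with 1 and 2 peaks these counts cannot be told from the background shares. The summit of this C/EBPα peak lay outside the H3K27me3 region. The remaining H3K4me1 calls of this flank were chr4:89033139-89033810, inside the 12.5 kb H3K27me3 region with 23 tags and a fold enrichment of 5.10, and the pair chr4:89053857-89054793 (937 bp) and chr4:89055409-89055879 (471 bp), with fold enrichments of 3.20 each.

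Set against windows of equal width, the interval was rich in H3K27me3, and its place in the other lists was nearer the middle and depended on its width. Chromosome 4 was divided into 447 windows of 340 kb, counted from the interval in both directions. H3K27me3 covered 77.3 kb in the Cdkn2a and Cdkn2b window and a median of 1.45 kb in the other 446, of which 7 (1.57%) had more and 191 had none. H3K4me1 covered 12.5 kb in it against a median of 3.04 kb, and 154 of the others (34.5%) had more. C/EBPα had 2 summits in it against a median of 1, and 184 others (41.3%) had more. Hoxa9 had 1 summit in it against a median of 0, with 87 others (19.5%) above and 273 without any. With flanks of 300 kb in place of 150 kb, the share of windows above was 2.94% for Hoxa9, with 5 peaks, 14.3% for C/EBPα, with 13 peaks, and 28.2% for H3K4me1, against 3.78% for H3K27me3. Much of the chromosome had no call in any list, which lowers the medians.

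Windows with still more H3K27me3 also held more H3K4me1 and more C/EBPα summits. All 7 windows with more H3K27me3, from 79.5 to 110 kb, also had more H3K4me1, from 18.3 to 68.9 kb, and more C/EBPα summits, from 4 to 12. In Hoxa9 summits they ranged from 0 to 4, with 2 of them below the genes' window. Among the 20 windows with most H3K27me3, 1 other had less H3K4me1 than the 12.5 kb around Cdkn2a and Cdkn2b, and the median of the other 19 was 34.8 kb. In C/EBPα summits 1 of the 19 was lower and 1 equal, and their median was 5. The windows were not compared by a test, since they hold different genes and are not replicates.

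**Figure D4:**
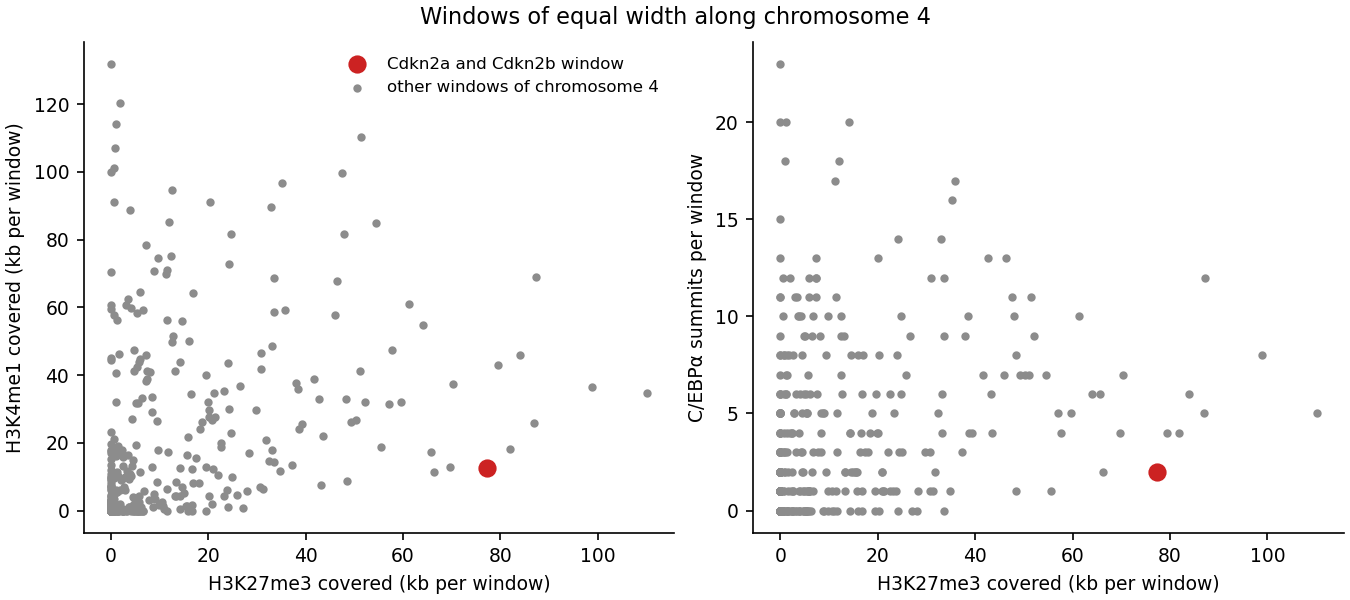
Windows of 340 kb along chromosome 4, with the length covered by H3K27me3 in kb on the horizontal axis and that covered by H3K4me1 in kb (left) or the number of C/EBPα summits (right) on the vertical axis. The red point is the window of Cdkn2a and Cdkn2b, at 77.3 kb of H3K27me3, 12.5 kb of H3K4me1 and 2 C/EBPα summits, and grey points are the other 446 windows.

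In the GRCm38 gene table Mtap, a methylthioadenosine phosphorylase gene, is the nearest protein-coding neighbour of the pair on the low-coordinate side, and Dmrta1, a gene of the doublesex family of transcription factors, on the high-coordinate side. The noncoding gene Gm12610 starts between Cdkn2a and Cdkn2b. Since the lists use mm9, none of the calls in the flanks was assigned to these genes.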

How the data were processed

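ChIP-seq lists of Hoxa9, C/EBPα, H3K4me1 and H3K27me3 were used, 1 library each. The build mm9 and the tools MACS 1.4, BWA 0.6.2 and CASAVA 1.8.2 are named per the submitters' processing notes. The caller's settings and its control library remain not given in the sources used here. As stated per the file headers, the deposited tags are raw counts in each peak, the deposited p score is −10 times the log10 of p, a −log10 scale, the deposited fold enrichment is a linear ratio over the caller's background, and the deposited false discovery rate is in percent. Since each list was called by itself, covered lengths and fold enrichments were compared within a list only.

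From these lists overlaps (at least 1 bp), covered lengths, summit distances and places among windows were computed with Python 3.11.15, pandas 2.3.3 and numpy 2.4.6, and the code was checked on simulated lists against counts per base. Figures were drawn with matplotlib 3.10.9. No p-value was computed. The interval and gene spans came with the choice of the locus, and the members and lists were chosen with earlier results of these data known. Peaks were named by rule: all factor peaks, all mark regions over the genes, the widest regions of each mark and those holding a factor summit. Beyond that rule, further regions of the flanks, the joined domain, the measure of call-free gaps and the H3K27me3 break were picked after their values were seen. The comparison of H3K4me1 summit spacing with the RefSeq starts was not planned either and had no alternative setting. Promoter sequences and gene names came from RefSeq (GRCm38.p6). Alternatives covered peak strength, interval width, grid and overlap definition.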

Additional observations from a re-analysis of the deposited data

How the results depend on the processing

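Of 65 alternatives to 16 values, 30 left the value close to that reported and 35 moved it, by over 1.5 times for counts and beyond the 95% exact binomial interval for shares. That interval treats the counted units as independent draws, so it is a yardstick for these labels and not a measure of spread. The values are counts, widths and shares without a sign, so a reversal of direction could not occur. No paired analysis was possible because each group had 1 library, so none could be left out either. The joining and break distances were chosen after seeing the data.

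A fold enrichment of 10 or more left 0 Hoxa9, 1 C/EBPα, 1 H3K4me1 and 5 H3K27me3 calls and 0 shared Hoxa9 peaks. It put 0.448% of windows above for H3K27me3, 23.1% for H3K4me1, 26.9% for C/EBPα and 12.3% for Hoxa9. The interval then had 0 Hoxa9 summits, level with 391 of the 446 other windows, so 12.3% marks no higher place. The upper 50% by score left 1 C/EBPα, 7 H3K4me1 and 14 H3K27me3 calls, 0 factor peaks on H3K27me3, and 35.0% (C/EBPα) and 10.3% (Hoxa9) of windows above. Flanks of 50 kb left 0 Hoxa9, 0 C/EBPα, 3 H3K4me1 and 11 H3K27me3 calls, with 46.9% of windows above for C/EBPα. In that setting 590 of the 1111 other windows also had 0 C/EBPα summits. Flanks of 300 kb gave 5 Hoxa9, 13 C/EBPα and 45 H3K4me1 calls, with 3.78% (H3K27me3), 28.2% (H3K4me1), 14.3% (C/EBPα) and 2.94% (Hoxa9) of windows above. Among windows with a call, 43.9% (H3K4me1), 52.4% (C/EBPα) and 24.8% (Hoxa9) were above. Wider or narrower flanks hold more or fewer calls by construction, and for the rest the cause was not tested.

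Spans widened by 5 kb were covered over 95.5% (Cdkn2a) and 89.8% (Cdkn2b). With the summit required inside, 0 factor peaks lay on H3K27me3. Joining over 250 bp gave a domain of 29.97 kb. Within 500 bp of both ends, 0 Hoxa9 members were flanked by H3K27me3. The place by H3K27me3 stayed between 0.448% and 3.78% of windows above in all 7 alternatives. Depth is unknown, so sites under the callers' thresholds are not seen.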
